A study of Homo sapiens with 4 samples.

Results

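The 10 genes followed here report or restrain bone morphogenetic protein (BMP) signalling, and were measured in the established medulloblastoma line Daoy: ID1, ID2, ID3, ID4, SMAD6, SMAD7, SMAD9, BAMBI, NOG and GREM1. They were chosen by name, with earlier results of these data known, as 10 of the 57820 gene identifiers in the count files. Of these, 9 passed the filter on low counts and NOG did not. RNA sequencing covered 4 libraries, of which 1 was labelled ARID1B shRNA and 3 were labelled wild type. ARID1B is a subunit of BAF, a complex that moves nucleosomes. A short hairpin RNA (shRNA) against it was carried by the lentiviral vector tet-pLKO-puro, which doxycycline switches on, in polyclonal cell populations. The labels give doxycycline at 1 µg/ml for 72 h for every library. Control cells were either parental or carried the empty vector, according to the series design, and no label says which of these a given wild-type library is. No label gives a batch, and with 1 shRNA library a batch and the hairpin cannot be told apart.

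BMP ligands bind pairs of type I and type II receptor kinases, which phosphorylate SMAD1, SMAD5 and SMAD9; these join SMAD4 and enter the nucleus. ID1, ID2 and ID3 are among the most direct targets. ID proteins carry a helix-loop-helix domain without a DNA-binding region, so they pair with E proteins such as TCF3 and keep bHLH factors off DNA. SMAD6 and SMAD7 act as feedback inhibitors inside the cell, BAMBI as a decoy receptor at the membrane, and noggin (NOG) and gremlin 1 (GREM1) as secreted proteins that trap the ligand. In the developing cerebellum, BMPs restrain the proliferation of granule neuron precursors, the cells from which Sonic hedgehog-type medulloblastoma arises.

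Sequence just upstream of the ID genes is shown because ID1 was the member that passed the test, and the other ID genes are its closest relatives. Each window is the 250 bases before the transcription start that RefSeq gives on GRCh38.p14, read 5′ to 3′ on the gene's strand. The windows lie at chr20:31605039-31605288 (plus strand) for ID1, chr2:8681806-8682055 (plus) for ID2, chr1:23559502-23559751 (minus) for ID3 and chr6:19837120-19837369 (plus) for ID4. Capitals mark GGAGCC, a variant of the SMAD1/5 element GGCGCC, and TATAA, the core of a TATA box, each on either strand.
ID1: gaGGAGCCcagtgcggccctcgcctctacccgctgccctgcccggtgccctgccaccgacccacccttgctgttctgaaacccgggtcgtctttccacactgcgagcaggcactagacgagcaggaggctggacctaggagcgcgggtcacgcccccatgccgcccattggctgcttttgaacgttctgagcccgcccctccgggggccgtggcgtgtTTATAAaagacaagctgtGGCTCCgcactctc
ID2: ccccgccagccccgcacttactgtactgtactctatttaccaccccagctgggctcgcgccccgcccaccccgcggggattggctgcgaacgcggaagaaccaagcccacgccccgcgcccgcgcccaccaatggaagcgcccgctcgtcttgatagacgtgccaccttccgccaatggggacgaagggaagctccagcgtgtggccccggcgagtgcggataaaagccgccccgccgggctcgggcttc
ID3: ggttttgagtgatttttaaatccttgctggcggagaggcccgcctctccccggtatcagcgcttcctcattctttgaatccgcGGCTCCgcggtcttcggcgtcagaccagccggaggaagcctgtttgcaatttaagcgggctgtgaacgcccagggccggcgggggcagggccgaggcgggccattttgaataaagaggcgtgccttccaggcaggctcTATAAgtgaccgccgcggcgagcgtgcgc
ID4: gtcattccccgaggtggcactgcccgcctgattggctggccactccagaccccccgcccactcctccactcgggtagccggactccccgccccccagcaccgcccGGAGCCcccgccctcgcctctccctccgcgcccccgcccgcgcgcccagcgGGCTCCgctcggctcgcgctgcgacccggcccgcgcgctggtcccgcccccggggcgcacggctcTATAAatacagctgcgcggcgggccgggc
ID1 and ID4 each held GGAGCC at 2 places and ID3 at 1, while ID2 held none. GGCGCC was in none of these 4 windows. TATAA stood near the start in ID1, ID3 and ID4; in ID1 it was matched on both strands by overlapping letters, which is why 6 bases are capitals there. Among 35116 windows of the same length in the RefSeq table, 30.6% held GGAGCC, 16.4% GGCGCC and 18.9% TATAA. A match says only that these letters are present. In mouse, the BMP-responsive elements described for Id1 lie further upstream than this window.

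Reads assigned to genes numbered 8792848 in the library labelled ARID1B shRNA and 12619786 to 15390106 in the wild-type libraries. The library labelled ARID1B shRNA had 5.27% of reads outside genes, against 7.07% to 7.65% in wild type. Its ambiguous reads numbered 7.67% of those assigned to genes, against 6.86% to 7.21% in wild type. The cause of these differences was not tested. Levels are given as CPM, the counts scaled to each library's size, which allow a gene to be compared between libraries; levels of different genes are compared per kb of transcript, and a share of reads is named as one. ARID1B itself stood at 175 CPM in the library labelled ARID1B shRNA, against 164, 88.0 and 72.9 CPM across wild-type libraries 1 to 3 (log2 fold change 0.69, standard error (SE) 0.46, edgeR adjusted p = 0.399), so the targeted mRNA was not lower there. Without wild-type library 1 it was called higher (1.12, edgeR adjusted p = 0.026), while taking out the GC and length trend described below put it at -0.16 (SE 0.61). Every direction below is therefore one of the library so labelled. None of the 7 blood and endothelial markers exceeded 1 CPM. In RNA from whole cultures, fewer expressing cells and less RNA per cell cannot be told apart. The shRNA arm is 1 library, so the test spread came from the wild-type libraries alone.

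Markers of the tumour's lineage and of other cell types differed within each list, and the part of these lists in the results below was not tested; the genes named from them were chosen after their values were seen. The 11 granule-lineage and medulloblastoma markers summed to 88.1 CPM in the library labelled ARID1B shRNA and to 76.9, 60.8 and 74.1 CPM in wild type. ZIC2 was the largest part of that sum in the library labelled ARID1B shRNA, and PAX6 in each wild-type library. ATOH1 had 0 counts throughout, and NEUROD1 and BARHL1 stayed below 1 CPM. GLI2 was above all 3 wild-type libraries without passing, at 14.8 CPM against 8.38, 5.80 and 9.76 CPM (log2 fold change 0.89). With the trend taken out GLI2 was at -0.14. MAP2 and TUBB3 lay inside the wild-type range. ZIC1 and PAX6 lay inside the wild-type range, OTX2 and SOX2 below it without passing, and ZIC2 rose to 24.8 CPM, against 8.93, 10.6 and 8.14 CPM in wild type (edgeR adjusted p = 0.043; 0.0629 and 0.0923 with library 2 or 3 left out, 0.0522 with upper-quartile scaling and 0.213 with the trend taken out). The 7 markers of WNT-type medulloblastoma summed to 43.9 CPM in the library labelled ARID1B shRNA and to 71.6, 57.0 and 68.0 CPM in wild type. WIF1 and DKK2 stayed below 1 CPM, and 2 markers were called in opposite directions. AXIN2 and LEF1 lay below all 3 wild-type libraries without passing (log2 fold changes -1.65 and -0.88, edgeR adjusted p = 0.0746 and 0.0951). NKD1 lay inside the wild-type range. DKK1, a secreted WNT inhibitor, rose to 20.6 CPM, against 1.55, 2.16 and 1.76 CPM in wild type (edgeR adjusted p = 0.0175). TNFRSF19 fell to 2.74 CPM, against 30.1, 16.5 and 31.2 CPM in wild type (edgeR adjusted p = 0.0388; 0.0753 with library 3 left out, 0.066 with limma-voom and 0.0688 with the trend taken out). The 8 mesenchymal markers summed to 15307 CPM in the library labelled ARID1B shRNA and to 25474, 32548 and 31986 CPM in wild type. Most of each sum was FN1 alone, at 10750.3 CPM against 18932.5, 26800.9 and 24157.8 CPM in wild type. None of these marker sums is per kb, so long and abundant genes weigh most. COL1A2 and PDGFRB lay below all 3 wild-type libraries without passing (log2 fold changes -1.17 and -1.96), and THY1 lay inside their range. VIM and S100A4 fell (log2 fold changes -1.42 and -2.40, edgeR adjusted p = 0.0213 and 0.0199; for VIM 0.0567 with library 2 left out), FN1 was at -1.12 (0.0593), COL1A1 at 0.35 was inside the wild-type range, and TWIST1 at 0.14 was above it; with the trend taken out COL1A1 and TWIST1 were at -0.71 and -0.31.

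ID1 (ENSG00000125968.7, chromosome 20) rose, and it was the only one of the 9 tested members to pass. It measured 97.0 CPM in the library labelled ARID1B shRNA (850 counts, exact 95% Poisson interval 90.5 to 104 CPM), against 31.6, 25.0 and 28.4 CPM across wild-type libraries 1 to 3. The wild-type values lay close together, the highest 1.27 times the lowest, and the library labelled ARID1B shRNA stood at 3.07 times the highest of them. This is a 3.42-fold difference (log2 fold change 1.77, SE 0.20, edgeR adjusted p = 0.0206). Over all 17024 tested genes 4.48% passed, 3.65% in the upward direction, so that 1 member of 9 is a small count to set against the background. Counts in each library also followed GC content and transcript length, and with that trend taken out ID1 was 2.24-fold higher (log2 fold change 1.17, SE 0.19, edgeR adjusted p = 0.0387); ID1 was again the only member to pass, where 3.21% of genes passed, 1.99% upward. Leaving out a wild-type library kept the call, by a narrow margin for library 2 (edgeR adjusted p = 0.049) and library 3 (0.0475). Removing the trend and a library together ended the call without library 2 (0.0682) or 3 (0.126).

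ID3 (ENSG00000117318.8, chromosome 1), the closest companion of ID1 in BMP responses, was highest in the same library but did not pass. Its level was 161 CPM in the library labelled ARID1B shRNA and 86.4, 34.9 and 74.2 CPM across wild-type libraries 1 to 3. No wild-type library reached the level of the library labelled ARID1B shRNA, yet wild type alone spanned 2.47-fold. The log2 fold change of 1.31 (SE 0.47) did not pass once adjusted over all tested genes (edgeR unadjusted p = 0.0386, adjusted p = 0.173). It was 0.88 (SE 0.46) with the trend removed.

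ID2 (ENSG00000115738.5, chromosome 2) lay on the other side. It stood at 19.2 CPM in the library labelled ARID1B shRNA, against 53.5, 24.2 and 24.9 CPM in wild type. All 3 wild-type libraries were above it, and library 1, the highest, was 2.21 times the lowest. The difference did not pass (log2 fold change -0.83, SE 0.55, edgeR adjusted p = 0.393), and was -0.36 with wild-type library 1 left out. An antisense gene, ID2-AS1, overlaps ID2 and was counted separately at 3 to 11 reads a library; since no strand setting is given, reads of the pair cannot be told apart.

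ID4 (ENSG00000172201.6, chromosome 6) showed no separation of the groups. It was at 8.90 CPM in the library labelled ARID1B shRNA and at 16.9, 8.43 and 6.83 CPM in wild type, within the wild-type range. Its log2 fold change of -0.27 (SE 0.57, edgeR adjusted p = 0.799) turned to 0.22 without wild-type library 1.

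**Figure D1:**
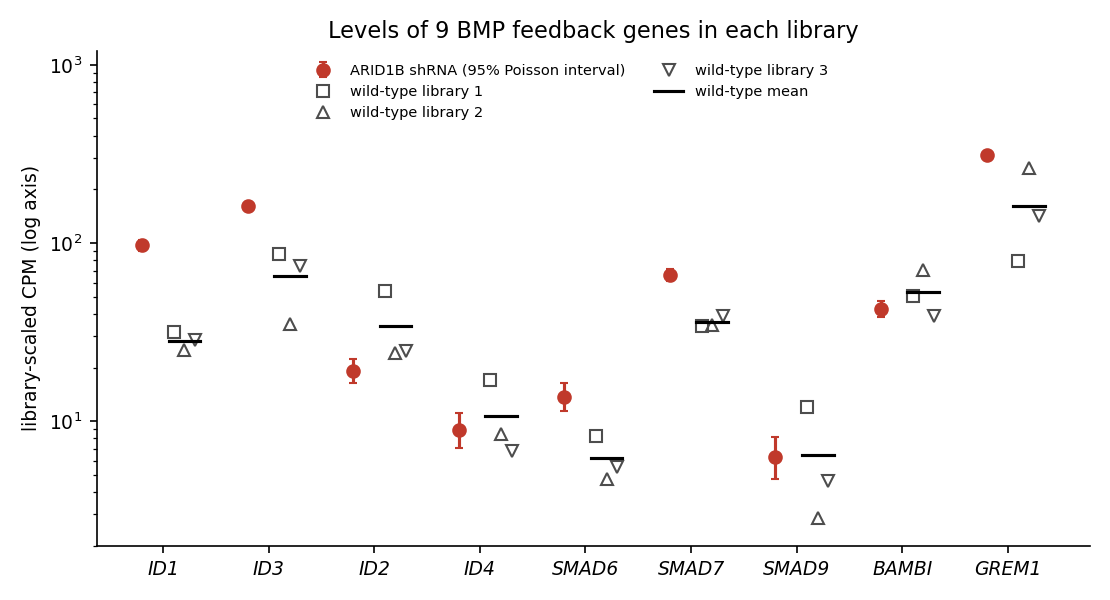
Library-scaled CPM (log axis) of the 9 tested members, with the library labelled ARID1B shRNA as a filled circle with its exact 95% Poisson interval and the wild-type libraries as open symbols with their mean as a bar. ID1 and SMAD7 have tight wild-type values well below the filled circle (ID1 at 97.0 CPM against 25.0 to 31.6 CPM in wild type, and SMAD7 at 66.3 CPM against 34.2 to 39.1 CPM in wild type), while SMAD9 and GREM1 vary 4.18-fold and 3.35-fold within wild type.

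The make-up of the ID family differed between libraries. Per kb of the longest annotated transcript, the 4 ID genes summed to 221 CPM per kb in the library labelled ARID1B shRNA and to 128, 63.6 and 97.5 CPM per kb across wild-type libraries 1 to 3. ID3 was the most abundant in every library, from 43.9% to 60.8% of that sum. ID1 made up 35.6% of it in the library labelled ARID1B shRNA and at most 31.8% in wild type, in library 2. ID2 made up 4.26% of it, against 20.5%, 18.6% and 12.5% in wild type. The order of ID1 and ID2 was not fixed in wild type: per kb they were level in library 1 (25.6 and 26.2 CPM per kb), and ID1 was the higher in libraries 2 and 3. Of all reads on ID genes, a share that also depends on transcript length, ID1 and ID3 took 90.2% (exact 95% binomial interval 89.0% to 91.3%) in the library labelled ARID1B shRNA and 62.6% (60.7% to 64.6%), 64.7% (62.0% to 67.5%) and 76.4% (74.5% to 78.2%) in wild type. That split was looked at after the values were seen, rests on 1 library, and was not tested. Both kinds of interval cover counting error only. The shares also keep the GC and length trend, and ID1 and ID3 had more GC (58.6% and 57.2%) than ID2 and ID4 (53.3% and 47.0%).

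**Figure D2:**
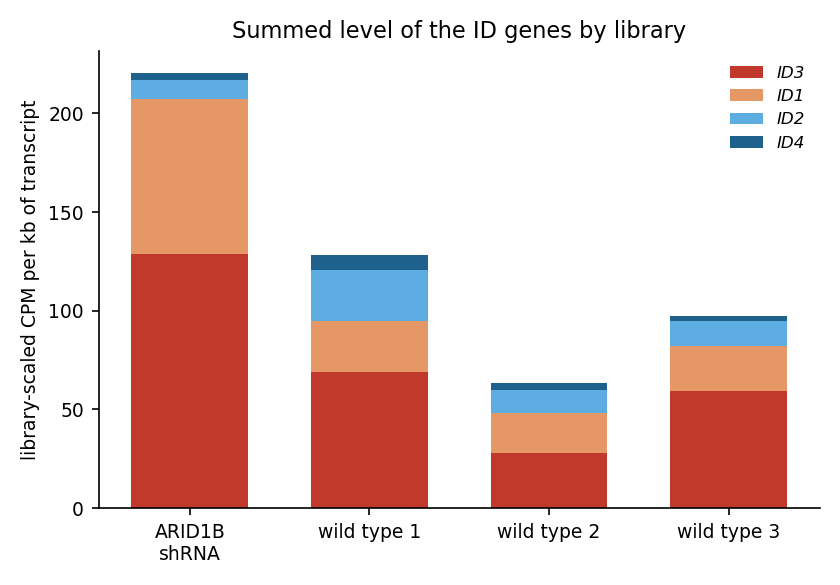
Stacked bars of library-scaled CPM per kb of transcript for ID3, ID1, ID2 and ID4 in each library. The sum is 221 in the library labelled ARID1B shRNA and 63.6 to 128 in wild type, and the ID2 and ID4 segments are the smallest part of the tallest bar.

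The inhibitory SMADs were both highest in the library labelled ARID1B shRNA, and neither passed. SMAD7 (ENSG00000101665.4, chromosome 18), which blocks type I receptors of the BMP and TGF-beta branches alike, was at 66.3 CPM there and at 34.2, 34.5 and 39.1 CPM in wild type. The wild-type libraries agreed within 1.14-fold, tighter than for any other tested member, and the difference came close to the threshold without passing it (log2 fold change 0.88, SE 0.19, edgeR adjusted p = 0.0621). SMAD6 (ENSG00000137834.10, chromosome 15), which acts mainly on the BMP branch, was at 13.7 CPM in the library labelled ARID1B shRNA and at 8.30, 4.72 and 5.53 CPM in wild type. Its log2 fold change was 1.15 (SE 0.38, edgeR adjusted p = 0.139), and it passed, at 1.41, with wild-type library 1 left out (edgeR adjusted p = 0.0485). Once the trend was taken out the differences shrank to 0.19 (SE 0.17) for SMAD7 and 0.39 (SE 0.38) for SMAD6. Per kb, SMAD7 was the more abundant of the pair in every library, by 4.84-fold to 8.58-fold.

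SMAD9 (ENSG00000120693.9, chromosome 13), the third of the SMADs that BMP receptors phosphorylate and itself a target of the pathway, did not separate the groups. It was at 6.27 CPM in the library labelled ARID1B shRNA and at 12.0, 2.86 and 4.62 CPM in wild type. The wild-type spread of 4.18-fold, on 37 to 154 counts, was the widest among the tested members, and the log2 fold change of -0.04 had an SE of 0.83 (edgeR adjusted p = 0.979).

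BAMBI (ENSG00000095739.7, chromosome 10), the decoy receptor, lay within the wild-type range. It had 42.4 CPM in the library labelled ARID1B shRNA and 50.2, 70.8 and 39.1 CPM in wild type (log2 fold change -0.33, SE 0.36, edgeR adjusted p = 0.595). Per kb of the longest annotated transcript it was at 22.5 CPM per kb in the library labelled ARID1B shRNA, after ID3 and ID1. The wild-type mean was 28.3 ± 8.55 CPM per kb (SD, n = 3). Its rank above GREM1 (21.3 CPM per kb) depends on the length used, since the longest GREM1 transcript has 14606 bases. In CPM, GREM1 was the higher at 311.

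Of the secreted antagonists, GREM1 was well expressed and NOG was barely detected. GREM1 (ENSG00000166923.6, chromosome 15) stood at 311 CPM in the library labelled ARID1B shRNA and at 78.8, 264 and 142 CPM in wild type. It was above every wild-type library, but at only 1.18 times the level of library 2, and wild type spanned 3.35-fold. Its log2 fold change of 0.95 (SE 0.61, edgeR adjusted p = 0.386) lay between 0.62 with wild-type library 1 left out and 1.51 with library 2 left out. A gene on the other strand, AC090877.2, overlaps GREM1 and had 10 counts in the library labelled ARID1B shRNA and 0 or 1 in wild type. NOG (ENSG00000183691.4, chromosome 17) had 3 counts in the library labelled ARID1B shRNA and 1, 0 and 0 counts in wild type. A count of 0 allows up to 0.232 CPM in wild-type library 2 and 0.195 CPM in library 3 (3 counts). No difference in NOG was detectable at this depth, and no fold is given.

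Across the 9 tested members, 5 were above all 3 wild-type libraries, 1 was below all 3 and 3 were inside their range. Among all tested genes 35.4% lay above, 37.9% below and 73.3% outside on either side, so that 6 members of 9 outside is no more than the background. The members' median log2 fold change was 0.88 and that of all tested genes -0.05. With the trend removed the medians were 0.19 and -0.08. Since the members were chosen with earlier results of these data known, these medians describe them and are no independent test. Wild-type library 1 held the highest wild-type value of 6 of the 9 members, namely all 4 ID genes, SMAD6 and SMAD9. It held the lowest wild-type value of SMAD7 and GREM1, though libraries 1 and 2 were nearly level for SMAD7 (34.2 and 34.5 CPM). ARID1B was also highest in library 1 among the wild-type libraries. The share of all tested genes highest in library 1 was not counted, so the 6 members have no background to be set against.

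**Figure D3:**
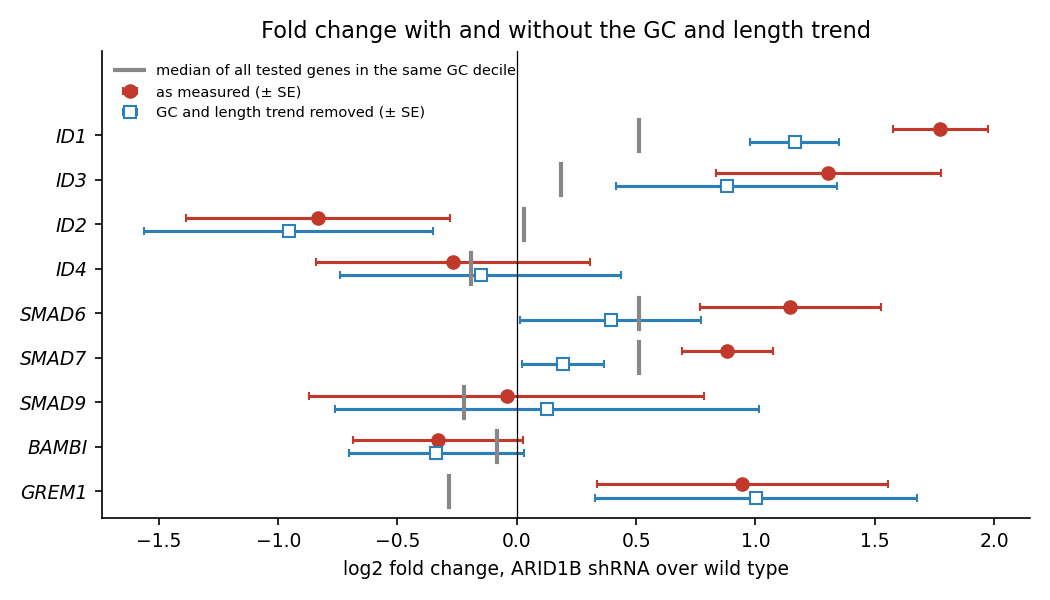
Log2 fold change of each tested member, library labelled ARID1B shRNA over wild type, with its SE, as measured (filled circles) and after removal of the GC and length trend (open squares); grey ticks give the median of all tested genes in the same GC decile. Removing the trend takes ID1 from 1.77 to 1.17 and SMAD7 from 0.88 to 0.19, and leaves GREM1 near 1.

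GC content moved with these differences. Of the 5 members above all wild-type libraries, 4 were GC-rich, with 58.6% for ID1, 57.2% for ID3, 58.9% for SMAD6 and 58.7% for SMAD7; the median of all tested genes was 48.1%. The ninth GC decile of all tested genes, which holds ID1, SMAD6 and SMAD7, had a median log2 fold change of 0.51, and the decile of ID3 0.19. SMAD7 and SMAD6 exceeded their decile's median by less than ID1 did. ID2, at 53.3% GC, lay below the 0.03 of its decile, and GREM1, at 39.8%, lay above the -0.28 of its decile. Taking the trend out kept the direction of 8 of the 9 members, and the exception was SMAD9 (0.13, SE 0.89).

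**Figure D4:**
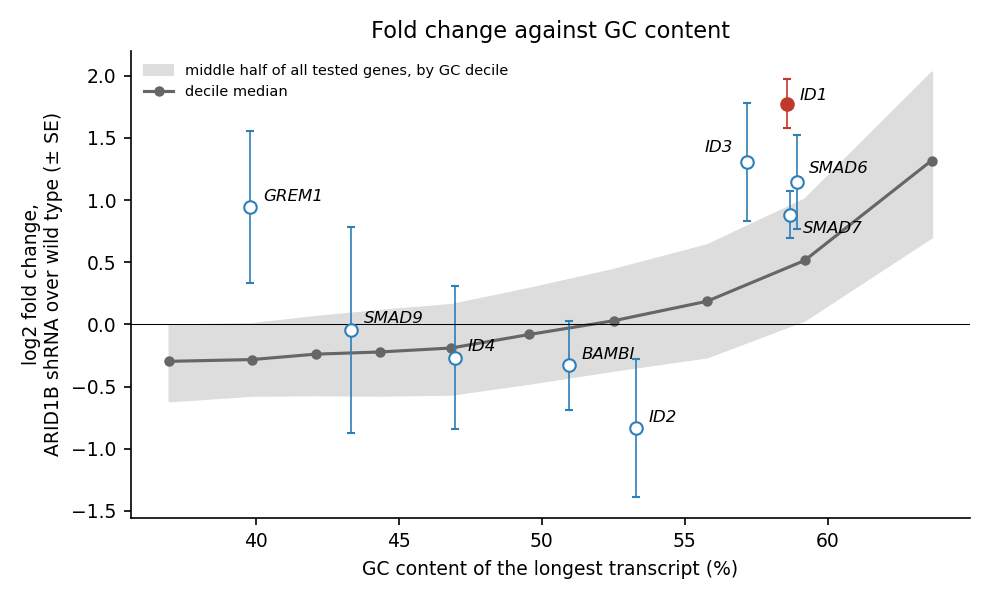
Log2 fold change (± SE) of the 9 tested members against the GC content of their longest transcript, over the median (line) and interquartile range (band) of all tested genes by GC decile. ID1, filled, stands well above the line at its GC content, SMAD7 just inside the upper edge of the band, and ID2 below the band.

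The rest of the pathway was read from 6 gene lists ordered by role. Of 16 ligand genes 14 were matched and 9 tested; 1 fell and none rose, and the median log2 fold change was 0.38 (-0.21 with the trend removed). BMP4, a ligand that signals through the BMP type I receptors, fell to 3.88 CPM in the library labelled ARID1B shRNA, against 14.6, 12.4 and 12.2 CPM in wild type (log2 fold change -1.75, SE 0.32, edgeR adjusted p = 0.0435; -1.92 and 0.0358 with the trend removed). That call was lost with library 2 (edgeR adjusted p = 0.0736) or library 3 (0.0832) left out, and with limma-voom (-1.73, adjusted p = 0.0523). The ligand genes BMP2 and BMP7, named for their role, were at 8.55 and 22.8 CPM, against wild-type means of 4.93 ± 1.31 and 13.5 ± 3.38 CPM (SD, n = 3), and did not pass (edgeR adjusted p = 0.254 and 0.225).

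None of the 14 tested of 15 receptors and co-receptors passed. The type I receptor genes BMPR1A and ACVR1 and the type II receptor gene BMPR2, chosen for their role, had log2 fold changes of -0.30 (SE 0.27), -0.07 (SE 0.18) and -0.30 (SE 0.17). RGMB, a membrane-bound BMP co-receptor, was at 45.3 CPM against 17.9, 24.1 and 21.2 CPM in wild type (log2 fold change 1.10, SE 0.24, edgeR adjusted p = 0.0621), and passed with the trend removed (1.16, edgeR adjusted p = 0.0462). Over the receptors the median difference was -0.05 (log2), equal to that of all tested genes.

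The secreted antagonists and modulators other than NOG and GREM1 held 2 genes that rose among 12 tested of 20, with a median log2 fold change of 0.55 (0.04 with the trend removed). The extremes of the list, SOST at 5.04 and TLL1 at -3.48, did not pass (edgeR adjusted p = 0.0619 and 0.0746) and rest on 0 to 48 counts a library. Follistatin, FST, which binds activins and some BMPs, rose to 8.44 CPM in the library labelled ARID1B shRNA, against 1.16, 1.31 and 1.37 CPM in wild type (log2 fold change 2.71, SE 0.34, edgeR adjusted p = 0.0244). FSTL3, a follistatin-like activin and myostatin inhibitor, rose to 38.4 CPM, against 12.2, 12.8 and 13.5 CPM (log2 fold change 1.58, SE 0.21, edgeR adjusted p = 0.0273). With the trend removed FST was at 2.87 (0.0206) and FSTL3, with a GC content of 64.4%, at 0.11 (0.854). Both calls ended without wild-type library 2 (edgeR adjusted p = 0.0565 for FST and 0.0567 for FSTL3) or 3 (0.0571 and 0.0523).

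None of the 25 SMADs and SMAD regulators, all tested, passed, and their median log2 fold change was 0.19 (0.17 with the trend removed). SMAD1 and SMAD5, which carry the BMP signal with SMAD9, had log2 fold changes of -0.47 (SE 0.26) and -0.31 (SE 0.25), and their partner SMAD4 had 0.29 (SE 0.18). SMURF2, a ubiquitin ligase that SMAD7 brings to the receptors, was at 107 CPM in the library labelled ARID1B shRNA and at 45.4, 60.8 and 62.9 CPM in wild type (log2 fold change 0.93, SE 0.23, edgeR adjusted p = 0.0803).

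Of 18 tested BMP targets other than the members, from a list of 21, 3 rose and 1 fell. The homeobox genes DLX2 and MSX1 rose to 31.3 and 26.8 CPM, against wild-type means of 5.27 ± 0.428 and 5.26 ± 1.20 CPM (SD, n = 3; log2 fold changes 2.57 and 2.35, edgeR adjusted p = 0.0183 and 0.0262). TBX3, a T-box repressor, rose to 152 CPM, against 59.1 ± 10.9 CPM (1.36, edgeR adjusted p = 0.0379). ZNF423, a zinc finger protein that joins SMAD1 and SMAD4 at BMP targets, fell to 10.4 CPM, against 38.9, 31.0 and 42.4 CPM (-1.85, SE 0.29, edgeR adjusted p = 0.0348; -2.28 and 0.0138 with the trend removed). Taking the trend out kept the call of DLX2 (1.79, edgeR adjusted p = 0.0359), as did leaving out any 1 wild-type library, and ended those of MSX1 (0.0888) and TBX3 (0.0688). The calls of MSX1 (edgeR adjusted p = 0.0587), TBX3 (0.0556) and ZNF423 (0.0626) ended when library 3 was left out, and those of TBX3 (0.0772) and ZNF423 (0.0503) when library 2 was. The list's median was 0.73 as measured and 0.56 with the trend removed.

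Among the bHLH partners and targets of ID proteins, 3 of 13 tested genes rose, from a list of 21 with a median log2 fold change of 0.94 (0.60 with the trend removed). TCF3, one of 3 E proteins on the list that ID proteins bind, rose to 176 CPM in the library labelled ARID1B shRNA, against 57.7, 41.1 and 70.8 CPM in wild type (log2 fold change 1.64, SE 0.29, edgeR adjusted p = 0.0438). The other E proteins did not pass: TCF4 was at 32.2 CPM, against 70.6, 55.2 and 58.4 CPM in wild type (-0.93, SE 0.23, edgeR adjusted p = 0.0822), below all 3, and TCF12 had a log2 fold change of 0.25 (SE 0.21). CDKN1A, the gene of the cell cycle inhibitor p21 and one that E proteins activate, rose to 351 CPM, against 67.2, 86.8 and 48.4 CPM (2.38, SE 0.30, 0.0274). TWIST2, a bHLH repressor, rose to 8.10 CPM, against 1.03 ± 0.580 CPM (SD, n = 3; 2.94, SE 0.54, 0.0448). With the trend removed none of these 3 passed (TCF3 0.65, edgeR adjusted p = 0.0737; CDKN1A 1.82, 0.126; TWIST2 2.55, 0.051). The TCF3 call also ended without wild-type library 2 (0.0553) or 3 (0.0502), and that of TWIST2 without library 2 (0.0784).

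**Figure D5:**
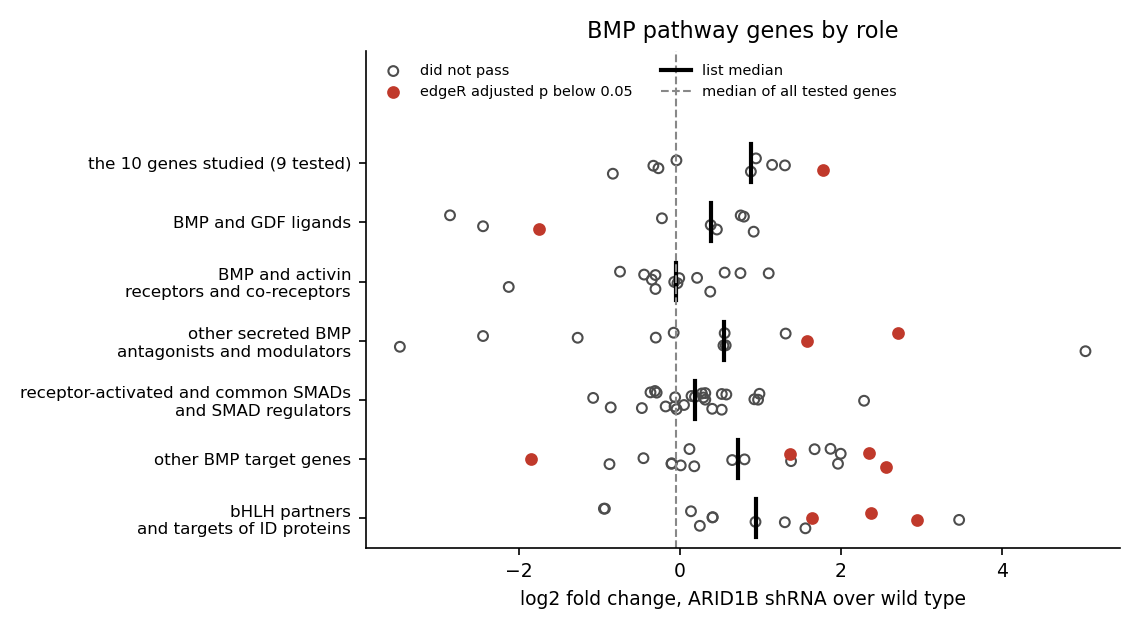
Log2 fold change, library labelled ARID1B shRNA over wild type, of every tested gene in the members' group and the 6 pathway lists (points, filled where the edgeR adjusted p is below 0.05), with each list's median (bar) and that of all tested genes (dashed). Filled points lie among the members (ID1), the ligands, the antagonists and modulators, the target genes and the ID partners, and none among receptors or SMADs. Those on the left are BMP4 among the ligands and ZNF423 among the targets.

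In all, 10 of the 91 tested list genes passed, 8 higher and 2 lower, against 4.48% of all tested genes. With the trend taken out 5 passed, where 3.21% of all genes did; 4 of them (BMP4, FST, DLX2 and ZNF423) were among the 10, and the other was RGMB. Leaving out wild-type library 1 gave 17 list genes, where 7.07% of all genes passed. It gave 3 without library 2, where 0.938% of all genes passed, and 3 without library 3, where 2.85% did, so that the last count is near its background. The lists were chosen with earlier results of these data known, so these counts describe the pathway and are no independent test of it.

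The genes whose levels ran most like ID1 over the 4 libraries were BRD1, UPP1, NIBAN1, VLDLR and NSMF. Likeness was the distance between log2 levels centred on each gene's mean, over 9994 protein-coding genes with a mean log2 CPM of at least 3. The distances were 0.16 for BRD1 and UPP1, 0.19 for NIBAN1 and 0.20 for VLDLR and NSMF. Their log2 fold changes ran from 1.62 for UPP1 to 1.90 for VLDLR, a likeness to ID1 that the choice by these same values fixes.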

How the data were processed

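Per the labels' protocols, polyA-selected RNA of 4 Daoy samples was read single-end over 100 nucleotides. The deposited values are raw counts of reads per Ensembl gene, 1 file a library. HISAT2, HTSeq, bcl2fastq and DESeq2, with GRCh37 (hg19), are named in the submitters' processing notes; tool versions, strand setting and annotation are not stated there or in the labels. Reads of antisense or overlapping genes are therefore uncertain. The 5 lines that name no gene (19.6% to 22.2% of all lines' reads) were left out. Symbols matched 51996 of 57820 identifiers; GC content and length are those of the longest GENCODE 29 transcript (GRCh38), and promoter windows come from RefSeq (GRCh38.p14).

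Counts were tested with edgeR 4.0.16 in R 4.3.3: filterByExpr (minimum count 10, total 15), TMM scaling, glmQLFit with robust shrinkage, Benjamini-Hochberg adjustment over 17024 genes, threshold 0.05. Its 2 residual degrees of freedom come from wild type, and the single shRNA library is taken to vary like those; nothing says that the wild-type libraries are separate cultures, so p-values may measure technical spread. SE is the absolute log2 fold change over the root of F. Alternatives were other scalings, DESeq2 1.42.0, limma-voom (limma 3.58.1), the later quasi-likelihood method, no robust shrinkage, other filters, a loess trend (span 0.3) on GC content and length removed through offsets, and each wild-type library left out. The trend removal combined with leaving out a library was chosen after seeing the data. The scripts were tested on simulated data. Named genes were the members, ARID1B, list genes that passed or had the 4 smallest p, the 5 genes nearest to ID1, and those said to be chosen for their role or after their values were seen (with TCF4 and TCF12); of the list genes with the smallest p only some are described. Members and lists were chosen with earlier results of these data known.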

Additional observations from a re-analysis of the deposited data

How the results depend on the processing

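No paired analysis was possible because there was only 1 library labelled ARID1B shRNA, and its label pairs it with no wild-type library. ID1 was higher in all 16 alternatives, by 1.06 to 1.86 on the log2 scale, and passed in 14. The members that passed numbered 3 with DESeq2 (ID1, ID3 and SMAD7) and 5 with no filter on low counts (these, SMAD6 and, lower, ID2). They numbered 1 to 2 without single wild-type libraries, and 0 to 1 with the trend also removed. The share of all tested genes that passed moved too, from 4.48% to 10.4% with DESeq2 and 10.5% with no filter (of 30709 genes). It was 7.07%, 0.938% and 2.85% without libraries 1, 2 and 3. Higher member counts thus came with more calls among all genes. Over all genes the count was 763, 1775 with DESeq2, 3226 with no filter and 157 to 1189 without single wild-type libraries, or 1084, 300 and 0 without libraries 1, 2 and 3 with the trend also removed; the 0, by edgeR without library 3, stands beside 2826 genes at an unadjusted p below 0.05, and the other tools were not run in that setting. List genes that passed numbered 10, 24 with DESeq2, 29 with no filter, 5 with the trend removed, 3 to 17 without single libraries and 15, 4 and 0 with both. Of the called genes 81.4% were higher (621 higher, 142 lower), and 62.1% with the trend removed (331 and 202). Directions that turned were those of SMAD9 (0.22 with limma-voom, 0.13 with the trend removed, 0.74 and -0.38 as the extremes without single libraries, and 0.91 and -0.24 with both), ID4 (-0.51 to 0.22, and -0.39 to 0.36 with both), ARID1B (-0.16 with the trend removed; -0.23 and -0.46 with library 2 or 3 also left out), ACVR1 (0.10 with the trend removed; 0.074, 0.075 and 0.16 with library 1, 2 or 3 also left out), SMAD5 (0.034 and 0.0020 with the trend and library 1 or 2 left out), FSTL3 (-0.061 with the trend and library 3 left out), and, with the trend removed and then also without library 1, 2 or 3, COL1A1 (-0.71, -0.83, -0.72 and -0.60) and TWIST1 (-0.31, -0.36, -0.20 and -0.39). The cause of these turns was not tested. GC content was measured beside the results, but with 1 shRNA library a technical trend and a biological trend on GC content cannot be told apart. Upper-quartile scaling moved the median gene by -0.12. Depth limits NOG, and SMAD9 and SMAD6 rest on 37 to 154 counts a library.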
